A study of Mus musculus with 8 samples.

Results

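A set of 10 genes of de novo lipogenesis, the route by which cells build fatty acids from citrate, was examined in brown adipose tissue (BAT) of mice that lack the lipase ATGL in their thermogenic adipocytes. The genes were taken by name from a table of 31053 Ensembl genes: the citrate carrier Slc25a1, the enzymes Acly, Acaca, Acacb, Fasn and Me1, the transcription factors Srebf1 and Mlxipl, and the small proteins Thrsp and Mid1ip1. All 10 were listed in the table and all 10 had enough counts to be tested. Bulk RNA-seq had been performed on BAT of 4 WT and 4 ATGLKO mice of the C57BL6/J strain, given as 10 weeks old by the labels and as younger by a figure legend of the study, and the study used males. ATGLKO mice, called Ucp1Δ/Δ in the study, came from a cross of Pnpla2 fl/fl with Ucp1-Cre mice, so the gene encoding ATGL is deleted where Ucp1 drives Cre, and other cells of the tissue keep it. Whether WT mice carried the floxed allele or the Cre was not given in the sources used here. The methods describe tissue harvest after a fast, in a passage that covers several mouse models, and do not say whether these mice were fasted.

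Citrate made in mitochondria leaves through the carrier encoded by Slc25a1 and is split by ATP citrate lyase (Acly) into acetyl-CoA. Acetyl-CoA carboxylase turns acetyl-CoA into malonyl-CoA, in the cytosol through the Acaca isozyme and at the mitochondrial surface through the Acacb isozyme, and fatty acid synthase (Fasn) joins the malonyl units into palmitate with NADPH, part of which comes from malic enzyme (Me1). Srebf1 encodes SREBP-1, which responds to insulin and sterols, and Mlxipl encodes ChREBP, which responds to glucose metabolites. Both factors activate genes of the pathway. Thrsp and its paralog Mid1ip1 encode proteins known to act on acetyl-CoA carboxylase. BAT has a high capacity for this pathway, and ATGL, which starts the hydrolysis of stored triglyceride, works on the lipid that the pathway helps to fill.

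The promoters of the 10 genes were read from RefSeq (build GRCm38.p6) as the 250 bases before each annotated start, which gave 14 start sites. Each was searched on both strands for a sterol regulatory element of the kind bound by SREBP, written TCACNCCAC. The search also covered the E-box, written CACGTG, which is the core letters of the sites known for ChREBP and USF proteins. The CCAAT box, with those letters, and the box bound by Sp1, written GGGCGG and called the GC box below, were the remaining motifs. The CCAAT box was found at 8 of the 14 start sites (33.8% of all 32851 promoters of the table and 34.4% of the 9153 of genes tested here), the GC box at 7 (32.7% and 59.7%), the E-box at 2 (6.02% and 8.73%) and the sterol element at 1 (1.05% of both). The GC box was thus no more frequent among the 14 than among promoters of tested genes. The 4 promoters below are those of the 3 genes with the lowest log2 fold change (log2FC, ATGLKO over WT) and the start site of Mlxipl that held the sterol element letters. They are written 5′ to 3′ on the strand of the gene, with every match of the 4 motifs in capitals. Fasn lies on the minus strand and the window is chr11:120824548-120824797, Acly is on the minus strand at chr11:100528001-100528250, Slc25a1 is on the minus strand at chr16:17928220-17928469, and the Mlxipl window is on the plus strand at chr5:135106641-135106890, within the annotated gene.
Fasn: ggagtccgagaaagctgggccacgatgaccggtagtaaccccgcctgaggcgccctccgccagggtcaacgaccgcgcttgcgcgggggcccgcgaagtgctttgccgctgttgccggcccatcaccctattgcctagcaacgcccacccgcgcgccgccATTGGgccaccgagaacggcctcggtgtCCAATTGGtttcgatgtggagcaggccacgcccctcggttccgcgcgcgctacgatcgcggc
Acly: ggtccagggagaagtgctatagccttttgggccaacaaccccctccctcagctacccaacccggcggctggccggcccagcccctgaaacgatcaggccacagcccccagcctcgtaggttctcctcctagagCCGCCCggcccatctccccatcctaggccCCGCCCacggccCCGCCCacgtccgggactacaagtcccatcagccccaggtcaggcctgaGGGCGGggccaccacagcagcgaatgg
Slc25a1: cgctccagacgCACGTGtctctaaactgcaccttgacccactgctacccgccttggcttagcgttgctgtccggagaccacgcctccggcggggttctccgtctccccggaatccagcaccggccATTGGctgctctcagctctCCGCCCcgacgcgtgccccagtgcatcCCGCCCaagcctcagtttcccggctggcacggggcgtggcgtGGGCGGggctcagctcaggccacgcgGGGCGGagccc
Mlxipl: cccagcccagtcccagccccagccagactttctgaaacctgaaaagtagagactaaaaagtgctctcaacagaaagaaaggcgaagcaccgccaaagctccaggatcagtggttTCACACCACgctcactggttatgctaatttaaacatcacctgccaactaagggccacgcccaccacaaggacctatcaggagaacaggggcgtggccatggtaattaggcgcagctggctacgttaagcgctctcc
The Fasn window held 3 CCAAT boxes, 1 on the opposite strand at positions -90 to -86 from the start and a pair on either strand at -62 to -58 and -59 to -55, which overlap. In the Acly window the GC box occurred 4 times, between positions -117 and -22. The Slc25a1 window held an E-box at -239 to -234, a CCAAT box on the opposite strand at -125 to -121 and 4 GC boxes. In Mlxipl the sterol element letters lay at -136 to -128. A match describes these letters only.

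Total counts ranged from 2017697 to 3115956 per mouse, with no detectable difference by genotype (p = 0.629, exact permutation test, two-sided), and 3 counts corresponded to between 0.963 and 1.49 CPM, counts scaled to a common library size with TMM factors. Pnpla2 fell to 16.3% of the WT mean (log2FC -2.62, adjusted p = 1.97e-07 by the quasi-likelihood method of edgeR, with p-values adjusted after Benjamini and Hochberg over all genes, the test used below unless another is named). A label for cell type reads stromal vascular fraction, the cells left once adipocytes are removed, but summed adipocyte markers stood at 3148 to 5265 CPM in WT and 2362 to 3123 CPM in ATGLKO mice, which goes against that name. Of 12 tested macrophage markers all 12 were higher in ATGLKO mice, with sums of 110 to 176 CPM in WT against 1069 to 1741 CPM, and 7 of 8 fibroblast markers were higher. Skeletal muscle markers spread from 116 to 2907 CPM over the mice, with 0 of 10 called and 0 at an unadjusted p under 0.05. They were highest in WT 1 and ATGLKO 2, and ATGLKO 4 (1323 CPM) and WT 4 (996 CPM) came next. Lep was the 1 higher gene of 5 white adipocyte markers and Tie1 of 7 endothelial markers, and 0 of 8 lymphocyte markers had enough counts to be tested. Of 1872 genes called, 63.6% were higher in ATGLKO mice, a share that was 78.5% with scaling by total counts and 97.2% with scaling by adipocyte markers.

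In ATGLKO mice 7 of the 10 lipogenesis genes fell and 0 rose. Lower calls were made for 7.63% of the 8930 genes tested, higher calls for 13.3% and calls in either direction for 21%. Fasn, Acly, Slc25a1, Thrsp, Acaca, Me1 and Acacb were the genes that fell, and Srebf1, Mlxipl and Mid1ip1 did not pass the test. No member was higher at an unadjusted p under 0.05 either, and DESeq2 and both limma tests also gave 7 lower and 0 higher. For 6 of the 7 the log2FC was below -1, a size that 2.54% of all genes reached with a call. In the same 7 genes every ATGLKO mouse was below every WT mouse, as in 9.37% of all genes, and in 0 members was every ATGLKO mouse above, as in 14.4% of all genes. The median log2FC of the 10 genes was -1.14, beside -0.01 over all genes tested. In bulk tissue, fewer adipocytes and less RNA per adipocyte cannot be told apart.

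**Figure D1:**
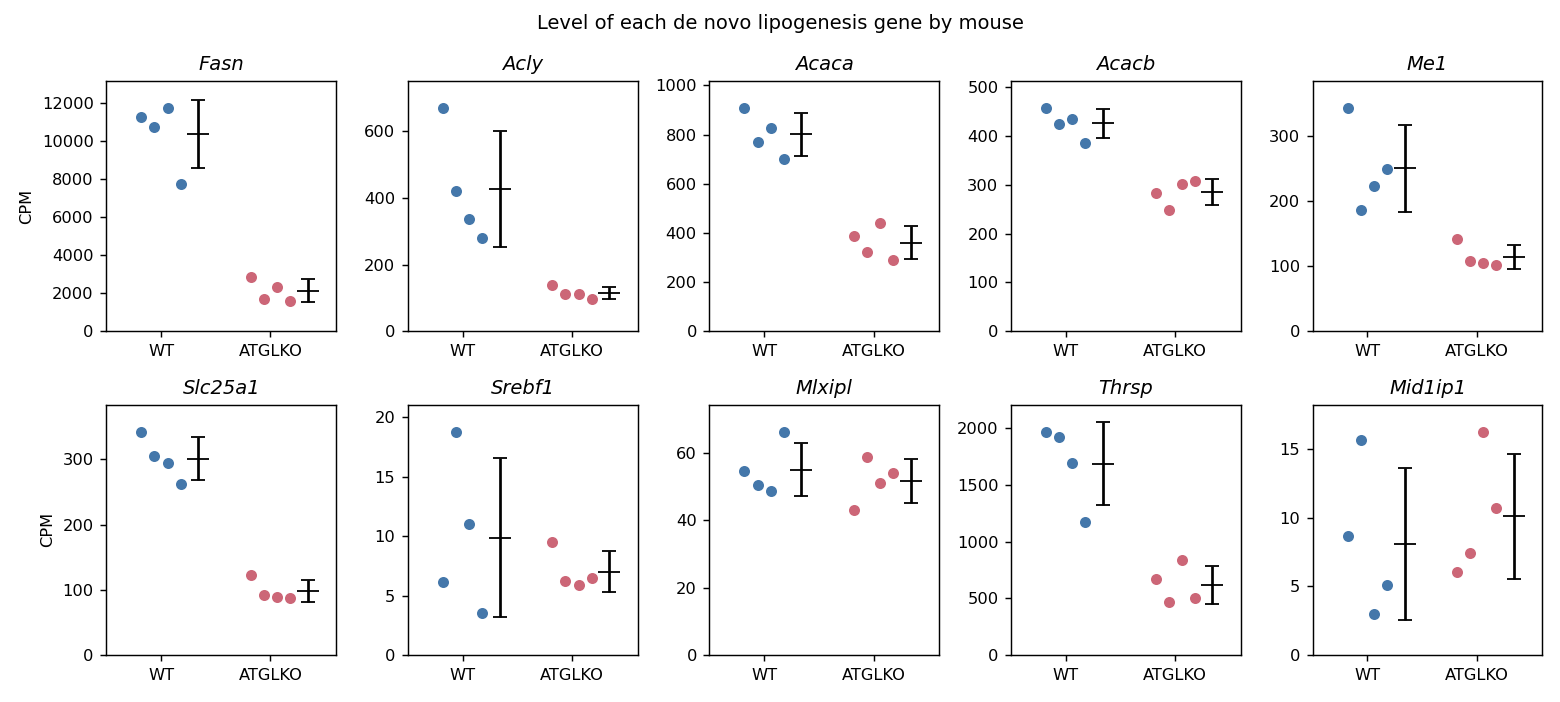
CPM of each of the 10 genes (vertical axes, from 0, with their own scale) in the 4 WT and 4 ATGLKO mice, 1 point per mouse in order of replicate number, with the mean and SD (n = 4) beside each group. In Fasn, Acly, Acaca, Acacb, Me1, Slc25a1 and Thrsp the points of the genotypes do not overlap, and in Srebf1, Mlxipl and Mid1ip1 they do.

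The supply of cytosolic acetyl-CoA was represented by Slc25a1 and Acly. Slc25a1 (ENSMUSG00000003528, chromosome 16, 17925223 to 17928219, minus strand) stood at 343, 305, 295 and 262 CPM in WT mice 1 to 4 and at 122, 92.4, 89.4 and 88.0 CPM in ATGLKO mice 1 to 4. The lowest WT mouse was above the highest ATGLKO mouse, and ATGLKO 1 was above the other ATGLKO mice, which lay close together. The mean level of the carrier was 301 ± 33.3 CPM in WT and 98.1 ± 16.3 CPM in ATGLKO mice (SD, n = 4 each), and its log2FC was -1.62 (SE 0.17, edgeR adjusted p = 9.47e-06). Acly (ENSMUSG00000020917, chromosome 11, 100476353 to 100528000, minus strand) was measured at 670.0, 422, 336 and 279 CPM in WT mice and at 139.7, 111, 111 and 97.4 CPM in ATGLKO mice. WT mice differed among themselves by up to 2.40-fold, with WT 1 the highest, and the genotypes still did not overlap. The level of Acly fell to 26.9% of the WT mean, from 426 ± 173 CPM to 115 ± 17.8 CPM (SD, n = 4 each), with a log2FC of -1.89 (SE 0.25, adjusted p = 5.3e-05, edgeR).

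Me1, the cytosolic malic enzyme that yields NADPH, also fell. Its level was 343, 186, 223 and 249 CPM in WT mice and 142, 108, 105 and 102 CPM in ATGLKO mice. WT 2 was the lowest of the WT mice and ATGLKO 1 the highest of the ATGLKO mice, and a gap remained between them. Me1 (ENSMUSG00000032418, chromosome 9, 86581371 to 86695953, minus strand) had a log2FC of -1.13 (SE 0.20, adjusted p = 0.000841, edgeR), from a mean of 250.2 ± 67.1 CPM to 114 ± 18.6 CPM (SD, n = 4 each). Its exons share 30 bases with an antisense gene, away from the end of the transcript.

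Both isozymes of acetyl-CoA carboxylase fell, Acaca by more than Acacb. Acaca (ENSMUSG00000020532, chromosome 11, 84129672 to 84401651, plus strand) stood at 909, 769, 825 and 699.6 CPM in WT mice and at 386, 321, 442 and 290.2 CPM in ATGLKO mice, a log2FC of -1.15 (SE 0.18, adjusted p = 0.000217, edgeR). Acacb (ENSMUSG00000042010, chromosome 5, 114146535 to 114250761, plus strand) stood at 458, 425, 435 and 386 CPM in WT mice and at 283, 249, 301 and 309 CPM in ATGLKO mice. The genotypes did not overlap for either isozyme, and the gap was narrower for Acacb. Its mean fell from 426 ± 30.3 CPM to 285 ± 26.5 CPM (SD, n = 4 each), with a log2FC of -0.58 (95% interval -0.90 to -0.25, adjusted p = 0.0135, edgeR). Without ATGLKO 2 the log2FC of Acacb was -0.51 and its adjusted p 0.0531 (edgeR). Without WT 1 and ATGLKO 2, the 2 libraries highest in muscle markers, they were -0.47 and 0.141. Without WT 1 alone the call held (log2FC -0.55, adjusted p = 0.0416, edgeR).

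The ratio of one isozyme to the other within a mouse does not depend on how libraries are scaled. The log2 ratio of Acacb to Acaca counts was -0.99, -0.85, -0.92 and -0.86 in WT mice and -0.45, -0.37, -0.55 and 0.09 in ATGLKO mice. All 4 ATGLKO mice were above all 4 WT mice, and in ATGLKO 4 alone the Acacb count exceeded that of Acaca. The means were -0.91 ± 0.06 and -0.32 ± 0.28 (SD, n = 4 each), a difference of 0.59 (p = 0.0286 in an exact two-sided permutation test, the smallest value possible with 4 mice against 4, and 0.0429 adjusted over the 3 ratios examined). With any mouse left out the ratio kept its direction, with a difference between 0.45 and 0.66. Leaving out WT 3 or any of the ATGLKO mice raised its adjusted p to 0.0857.

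**Figure D2:**
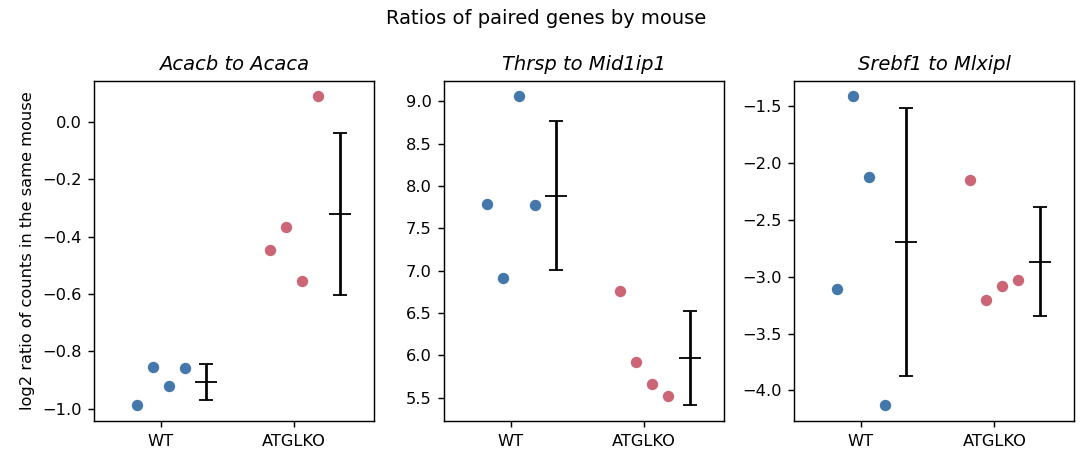
Log2 ratio of the counts of paired genes within each mouse (vertical axes), for WT and ATGLKO mice, with the mean and SD (n = 4) beside the points. Acacb to Acaca is higher and Thrsp to Mid1ip1 lower in every ATGLKO mouse than in any WT mouse, and Srebf1 to Mlxipl overlaps.

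Fasn, which carries out all steps from malonyl-CoA to palmitate, had the lowest log2FC of the 10 genes and the 15th lowest of the 8930 tested. Fasn (ENSMUSG00000025153, chromosome 11, 120805846 to 120824547, minus strand) was measured at 11282, 10732, 11746 and 7767 CPM in WT mice and at 2871, 1685, 2339 and 1604 CPM in ATGLKO mice. The WT mouse with the least Fasn, WT 4, was still 2.71-fold above ATGLKO 1, the ATGLKO mouse with the most. Its mean fell from 10382 ± 1792 CPM to 2125 ± 596 CPM (SD, n = 4 each), or to 20.5% of WT, with a log2FC of -2.29 (95% interval -2.77 to -1.81, adjusted p = 4.21e-06, edgeR). Omitting any single mouse gave a log2FC from -2.46 to -2.17.

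Since Fasn gave most of the counts of the 10 genes, their joint share of the library followed it. The 10 genes took 1.56%, 1.37%, 1.5% and 1.02% of all counts in WT mice and 0.465%, 0.339%, 0.443% and 0.319% in ATGLKO mice. Every ATGLKO library thus held a smaller share than any WT library, before any scaling between mice. Fasn made up 70.3% to 75.2% of the counts of the 10 genes in WT mice and 52.4% to 61.4% in ATGLKO mice, and the ranges did not overlap.

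**Figure D3:**
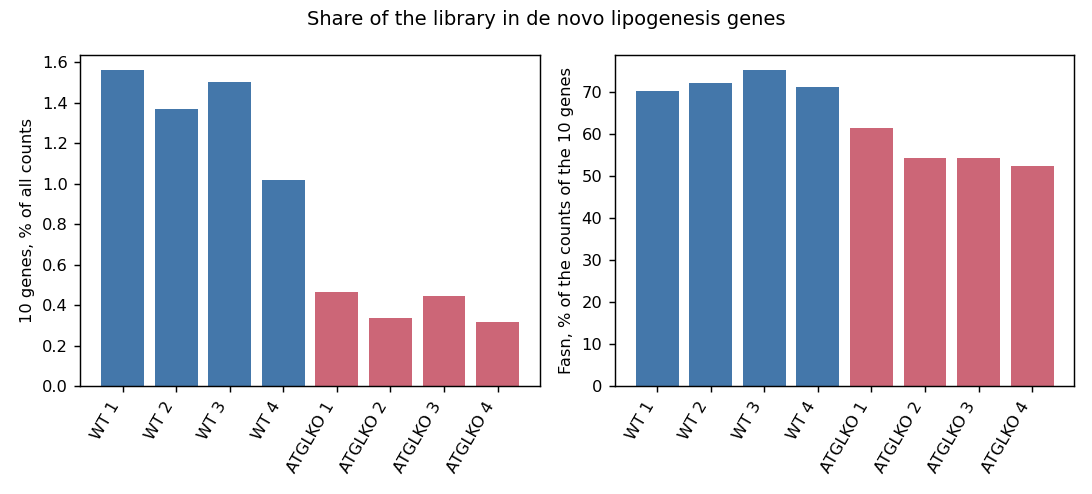
Left, counts of the 10 genes as a percentage of all counts of each mouse; right, Fasn counts as a percentage of the counts of the 10 genes. WT mice lie between 1.02% and 1.56% on the left and ATGLKO mice between 0.319% and 0.465%, and the Fasn share is lower in every ATGLKO mouse.

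The paralogs Thrsp and Mid1ip1 differed in their response. Thrsp (ENSMUSG00000035686, chromosome 7, 97412938 to 97417730, minus strand), the spot 14 protein known for its rise with thyroid hormone and carbohydrate, stood at 1971, 1922, 1689 and 1169 CPM in WT mice and at 670.1, 463, 834 and 501 CPM in ATGLKO mice. WT 4 was again the lowest WT mouse, and no ATGLKO mouse reached it. Thrsp fell to 36.5% of the WT mean, with a log2FC of -1.45 (SE 0.22, adjusted p = 0.000217, edgeR). Mid1ip1 (ENSMUSG00000008035, chromosome X, 10715013 to 10719690, plus strand) was measured at 8.67, 15.7, 3.01 and 5.07 CPM in WT mice and at 6.01, 7.47, 16.3 and 10.7 CPM in ATGLKO mice. Its values rest on 176 counts over all 8 mice, and the genotypes overlapped throughout. The log2FC of Mid1ip1 was 0.32 with a 95% interval of -0.61 to 1.26 (adjusted p = 0.654, edgeR), an interval that holds changes of either sign. The log2 ratio of Thrsp to Mid1ip1 was 7.79, 6.92, 9.06 and 7.78 in WT mice and 6.76, 5.92, 5.66 and 5.52 in ATGLKO mice. Each ATGLKO mouse was below each WT mouse, by a difference in means of -1.92 (two-sided exact permutation test, p = 0.0286, adjusted p = 0.0429), and leaving out WT 3 or any of the ATGLKO mice raised the adjusted p to 0.0857. Exons of Mid1ip1 share 543 bases with the antisense gene Gm14493, and whether the counting used strand was not given in the sources used here.

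Neither transcription factor passed the test. Srebf1 (ENSMUSG00000020538, chromosome 11, 60199089 to 60222581, minus strand) stood at 6.12, 18.8, 11.0 and 3.55 CPM in WT mice and at 9.55, 6.22, 5.85 and 6.44 CPM in ATGLKO mice. WT mice spread over 5.31-fold and enclosed all ATGLKO mice, on 170 counts in all. Its log2FC was -0.51 with a 95% interval of -1.36 to 0.34 (adjusted p = 0.414, edgeR). The log2FC moved to -0.04 without WT 2 and to -0.78 without WT 4. The interval from all mice does not reach the -2.29 of Fasn but holds the -1.15 of Acaca. Near its 3′ end Srebf1 shares 109 exon bases with the opposite-strand gene Rai1, so reads from these cannot be told apart without strand. It also shares 66 exon bases there with the microRNA gene Mir6922 on the same strand, which strand would not separate. Counts by gene do not separate the isoforms of SREBP-1 or its cleavage, which controls its activity.

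Mlxipl (ENSMUSG00000005373, chromosome 5, 135089890 to 135138382, plus strand) was measured at 54.6, 50.6, 48.8 and 66.4 CPM in WT mice and at 43.2, 58.8, 51.0 and 54.1 CPM in ATGLKO mice. The mice of both genotypes were intermixed. From 1056 counts, the log2FC of Mlxipl was -0.09 with a 95% interval of -0.45 to 0.28 (adjusted p = 0.776, edgeR), which leaves out falls as large as those of the 7 genes called, Acacb included. Counts by gene do not separate the long form of ChREBP from the short form made from its own start site. The exons overlap the antisense gene Gm43500 by 235 bases. The log2 ratio of Srebf1 to Mlxipl was -2.70 ± 1.18 in WT and -2.87 ± 0.48 in ATGLKO mice (SD, n = 4 each) and did not pass the test (two-sided exact permutation test, p = 0.857).

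Some adipocyte markers were lower as well. Of 8 adipocyte markers tested, 3 fell (Adipoq, log2FC -0.82, Plin1, -0.91, and Cidec, -1.01) and 0 rose, 37.5% called beside 21% of all genes. At an unadjusted p under 0.05, 6 were lower and 0 higher, and the median log2FC of the 8 was -0.59. Plin4, a lipid droplet protein, went the other way without passing the test, with a log2FC of 0.25 (adjusted p = 0.276, edgeR) and every ATGLKO mouse above every WT mouse. Of 10 brown adipocyte markers tested, 2 fell (Cidea and Elovl3), 1 rose (Dio2) and 7 were not called, 30% called beside 21% of all genes. Ucp1 was among those not called, with a log2FC of -0.34 (adjusted p = 0.481, edgeR). When libraries were scaled to equal sums of the 8 adipocyte markers, the median log2FC of all genes moved to 0.58. Of the 10 lipogenesis genes 5 were then lower and 0 higher, beside 88 lower and 3034 higher of all 8930 genes tested. Fasn had a log2FC of -1.72 on that scale, Acly -1.32, Slc25a1 -1.05, Thrsp -0.86 and Acaca -0.58, each with an adjusted p under the threshold. Me1 had -0.60 (adjusted p = 0.0901) and Acacb 0.01 (adjusted p = 0.967), so both lost their call, and Srebf1 and Mlxipl turned to 0.17 and 0.49 without passing the test. The WT and the ATGLKO mouse nearest in adipocyte marker sum, a pair picked after the values were seen, were WT 4 at 3148 CPM and ATGLKO 1 at 3123 CPM. Fasn was 7767 CPM in that WT mouse and 2871 CPM in that ATGLKO mouse. The pair was not alike in brown adipocyte marker sum (6458 and 9300 CPM) or macrophage marker sum (132 and 1382 CPM). Macrophage and fibroblast markers rose in the same mice in which the 7 genes fell, and their part in the result was not tested.

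**Figure D4:**
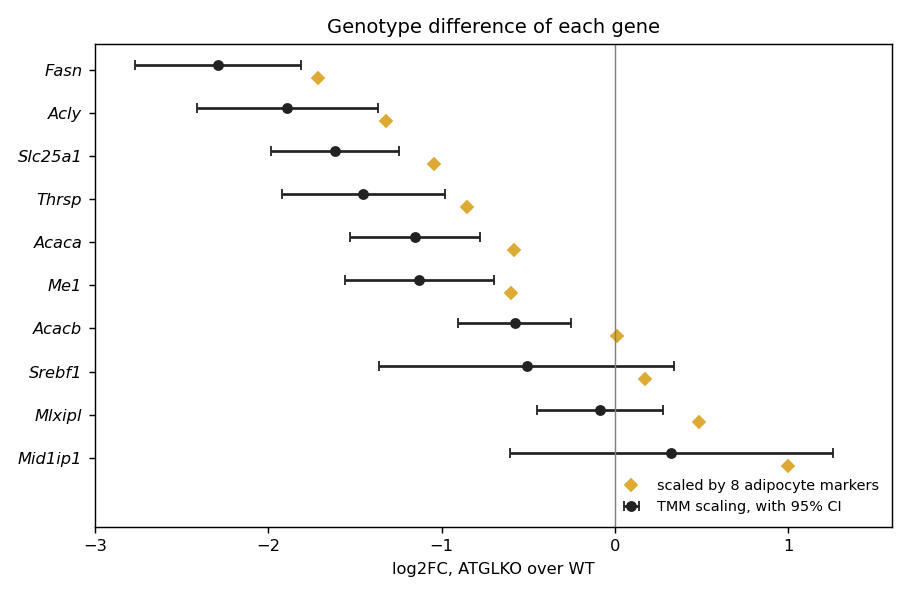
Log2FC (ATGLKO over WT, horizontal axis) of each gene with the 95% interval under TMM scaling (circles) and the value with libraries scaled by 8 adipocyte markers (diamonds). Fasn, Acly, Slc25a1, Thrsp and Acaca are below 0 on both scales, Acacb lies at 0.01 on the marker scale, and the intervals of Srebf1, Mlxipl and Mid1ip1 cross 0.

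The genes also varied among mice of one genotype. WT 4 was the lowest WT mouse in 7 of the 10 genes, and WT 1 the highest in 6. Among ATGLKO mice, ATGLKO 4 was the lowest in 5 genes and ATGLKO 1 the highest in 5. After the genotype means of log2 CPM were removed, 33 of the 45 pairs of the 10 genes correlated positively over the 8 mice, with a median Pearson r of 0.35, a description in which all points share the library and its composition. Thrsp followed the mean of the other 9 genes most closely (r = 0.85), then Acly (0.82), Fasn (0.74), Acaca (0.73) and Slc25a1 (0.66). Mlxipl ran opposite to them (r = -0.77): it was highest in WT 4 and lowest in ATGLKO 1. Me1 had r = 0.30, and the low-count genes Srebf1 and Mid1ip1 had r = 0.21 and 0.22. Among 2084 other genes of at least 50 CPM, those whose deviations were most like the mean of the lipogenesis genes were Pkm (r = 0.99), Fdx1, D8Ertd738e, Rbm8a, Gpi1, Aldoa, Pdhb, Rragc, Mtor and Pygl (r = 0.93), beside a median r of 0.16. Pkm, Gpi1 and Aldoa encode glycolytic enzymes, and none of the 3 passed the test between genotypes, with log2FC of -0.08, -0.14 and -0.32. Of the 10 only Pdhb and Pygl, which encode a subunit of pyruvate dehydrogenase and a glycogen phosphorylase, fell in ATGLKO mice.

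Neighbouring steps of the pathway were read from lists written by hand. Of 25 tested genes that supply acetyl-CoA, citrate and NADPH, 11 fell and 2 rose, 52% called beside 21% of all genes (median log2FC -0.41). Among them Tkt and Taldo1, which encode the transketolase and transaldolase of the pentose phosphate pathway, fell with log2FC of -1.58 and -1.29, Acss2, which makes acetyl-CoA from acetate, with -1.24, and Pcx, the pyruvate carboxylase, with -0.91. The mitochondrial pyruvate carrier genes Mpc1 and Mpc2 and the pyruvate dehydrogenase genes Pdha1, Pdhb and Dlat also fell. Idh2 and G6pdx, both of which encode NADPH-yielding dehydrogenases, rose instead, with log2FC of 1.45 and 0.70. G6pdx was 77.0, 73.9, 69.5 and 53.2 CPM in WT mice and 130.6, 95.8, 89.4 and 128 CPM in ATGLKO mice. RNA of this first enzyme of the pentose phosphate route was thus higher in every ATGLKO mouse, while that of Tkt was lower in every one. Both are levels of bulk tissue in which macrophage markers also rose, and whether they changed in the same cells was not tested. The call of G6pdx was lost without ATGLKO 4 (log2FC 0.62, adjusted p = 0.0519, edgeR). Without ATGLKO 2, 7 genes of this list fell, and without both WT 1 and ATGLKO 2, 6.

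Downstream of palmitate, 10 of 19 genes of elongation, desaturation and esterification fell and 1 rose, 57.9% called (median log2FC -0.74). Elovl6, which extends palmitate, fell from 589.7 ± 44.9 CPM to 251 ± 26.9 CPM (SD, n = 4 each; log2FC -1.23, adjusted p = 4.73e-05, edgeR). Agpat2 and Dgat2, which encode enzymes of triglyceride assembly, had log2FC of -2.19 and -1.25, and Elovl5 of -1.35. Scd1, the desaturase that makes oleate and a known target of SREBP-1, did not pass the test, with a log2FC of -0.34 (95% interval -0.71 to 0.04, adjusted p = 0.204, edgeR), although all ATGLKO mice were below all WT mice. Elovl1, which acts on very long chains, rose with a log2FC of 1.34.

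Of the 16 tested genes of SREBP processing and LXR signalling 2 fell and 0 rose, 12.5% called. Insig1, which retains SREBP in the endoplasmic reticulum and is itself an SREBP target, stood at 54.6, 94.1, 46.7 and 51.7 CPM in WT mice and at 17.3, 14.6, 23.8 and 16.7 CPM in ATGLKO mice. No ATGLKO mouse reached the WT range (log2FC -1.77, adjusted p = 9.36e-05, edgeR). Lpcat3, a target of LXR, had a log2FC of -0.82, and Srebf2 one of -0.15 (adjusted p = 0.80). Usf1 was listed at 0 counts in all 8 mice. No gene of the list was higher at an unadjusted p under 0.05, and DESeq2 and both limma tests called 0 higher. Without WT 3, 1 gene of the list fell. Of 18 cholesterol synthesis genes, 4 fell (Fdft1, log2FC -1.59; Nsdhl, -1.43; Pmvk, -0.96; Hmgcs1, -0.84) and 0 rose, 22.2% called and so near the 21% of all genes, with 8 lower and 1 higher at an unadjusted p under 0.05. DESeq2 and both limma tests called 0 of them higher, and 1 was higher with scaling by total counts or adipocyte markers, with at least 10 counts in every mouse, and without ATGLKO 1.

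Of 11 genes of glucose sensing and carbohydrate response, 4 fell and 1 rose, 45.5% called. Mlx, the dimer partner of ChREBP, fell from 14.0 ± 4.56 CPM to 5.63 ± 2.38 CPM (SD, n = 4 each; log2FC -1.34, adjusted p = 0.00923, edgeR), on 190 counts in all and with an overlap between genotypes. Slc2a4, the insulin-responsive glucose transporter, fell with a log2FC of -0.99, Pfkfb3, a regulator of glycolysis, with -1.59, and Hk2 with -0.64, whereas Hk1 rose with 2.56. Txnip, a known target of ChREBP, had a log2FC of 0.14 (95% interval -0.22 to 0.50, adjusted p = 0.602, edgeR). Without both WT 1 and ATGLKO 2, 2 genes of this list fell.

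Of 11 genes of AMPK and malonyl-CoA control, 2 fell and 1 rose, 27.3% called beside 21% of all genes. Mlycd, which breaks malonyl-CoA down again, fell with a log2FC of -0.85, and Prkab1, an AMPK subunit, with -1.09. Cpt1a, a carnitine palmitoyltransferase that malonyl-CoA inhibits, rose from 7.51 ± 1.07 CPM to 18.6 ± 2.14 CPM (SD, n = 4 each). Its log2FC was 1.29 (adjusted p = 0.000653, edgeR), and each ATGLKO mouse was above each WT mouse. Cpt1b, another carnitine palmitoyltransferase of the list, had 2 counts over all mice and was not tested, so the rise describes Cpt1a only. Leaving out WT 2, ATGLKO 1, ATGLKO 2 or ATGLKO 3 left 1 gene of the list lower. None of 20 insulin signalling genes was called by edgeR's test, with 2 lower and 0 higher at an unadjusted p under 0.05, 0 called by DESeq2 and by limma on the deposited log2 values, and 1 lower by limma voom. With adipocyte marker scaling 5 of the 20 were higher, beside 3034 of all 8930 genes, and without WT 2, 1 was lower. Of 10 genes of fatty acid synthesis in mitochondria, a separate pathway, edgeR called 0, with 2 lower and 0 higher at an unadjusted p under 0.05, and DESeq2 and both limma tests called 1 lower each. Scaled by adipocyte markers, 13 genes over all lists were lower and 24 higher, against 33 and 5 with TMM. Over all 8930 genes tested, that scale gave 88 lower and 3034 higher, against 681 and 1191 with TMM.

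**Figure D5:**
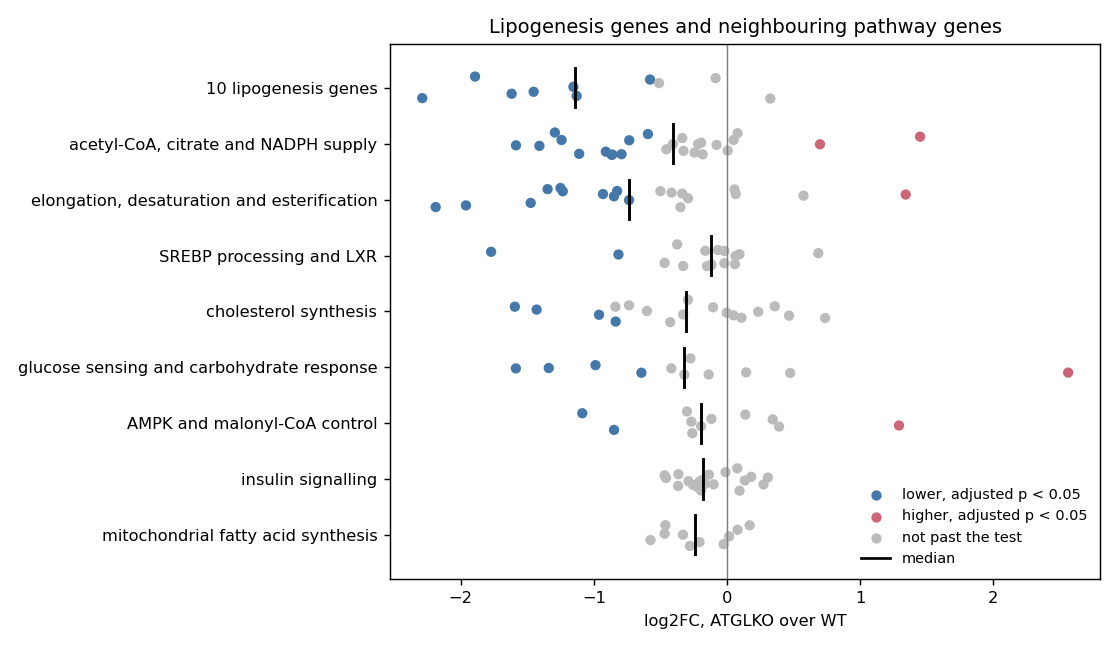
Log2FC (ATGLKO over WT, horizontal axis) of the 10 lipogenesis genes and of the tested genes of 8 neighbouring lists, 1 point per gene, coloured by call in edgeR's test, with the median of each list as a bar; the vertical spread within a list carries no meaning. The lipogenesis genes have a median of -1.14, elongation, desaturation and esterification -0.74, and insulin signalling has no called gene.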

How the data were processed

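BAT of 4 WT and 4 ATGLKO mice was profiled by a digital mRNA-seq service with single-end reads. By the study's methods the authors trimmed reads with bbduk, aligned them with STAR to mm10, counted them with HTseq-counts and deposited raw counts per Ensembl gene; the submitters' processing notes name Trimmomatic, HISAT2 and DESeq2 instead. The authors also deposited log2 values, which equal the log2 of the count over 1 factor per mouse, plus 1. Annotation release and strand setting were not given in the sources used here. Symbols and positions came from GENCODE (GRCm38), and 30934 of 31053 identifiers had a symbol.

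Counts were filtered with filterByExpr, scaled by TMM and tested on genotype with edgeR 4.0.16 (R 4.3.3), with Benjamini-Hochberg adjustment over 8930 genes and a threshold of 0.05. Ratios had 0.5 added to each count, and log2 CPM a prior count of 2. Alternatives used DESeq2 1.42.0, limma 3.58.1, other scalings, filters, thresholds and samples. The CPM values given for 3 counts cover counting error only. The intervals given for log2FC rest on the standard errors of edgeR's quasi-likelihood test, which include variation between mice. Chi-square over its degrees of freedom between libraries of the same genotype was 4.69 to 23.2, so none was taken as a repeat of another. Whether mice were littermates was not given, and the main tests treat the mice as independent. The 10 genes and the lists were chosen with earlier results of these data known. Named were the 10 genes, Pnpla2, the marker genes, up to 4 genes per list and direction with the smallest adjusted p, Srebf2, Mlx, Insig1, Scd1, Elovl6, Mlycd, Acss2, G6pdx, Txnip, and the 10 genes most like the mean of the 10. Mpc1, Mpc2, Pdha1, Pdhb, Dlat, Usf1 and Cpt1b were named after their values were seen.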

Additional observations from a re-analysis of the deposited data

Results flagged for a closer look

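Dixon's test was applied to 28 groups of 4 mice: the 10 genes, Pnpla2 and 3 ratios in each genotype. A mouse was marked at the 95% level when its gap to the nearest other mouse took a large share of its group's range. Chance marks about 1 of 20 groups, here 1.4, and 3 were marked. All 3 concern ATGLKO 1. Its log2 CPM of Me1 was 7.16 beside 6.69 to 6.76 in the other ATGLKO mice (gap over range 0.840), and that of Slc25a1 was 6.95 beside 6.47 to 6.54 (0.852). Its log2 ratio of Srebf1 to Mlxipl was -2.16 beside -3.21 to -3.03 (gap over range 0.8294), on 27 counts of Srebf1. Without ATGLKO 1 both Me1 and Slc25a1 remained lower in ATGLKO mice.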

How the results depend on the processing

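Over the alternatives, 179 of 188 log2FC values of the 10 genes kept their direction and side of the threshold, 3 lost their call and 6 changed sign. The 7 lower genes remained 7 except 5 with scaling by adipocyte markers, 6 without ATGLKO 2, 6 without WT 1 and ATGLKO 2 together (chosen after seeing the data), 6 at an adjusted p under 0.01 and 6 with log2FC beyond 1. Left out in turn, mice gave 6 to 7 lower and 0 higher. Signs changed for Acacb (0.0108), Srebf1 (0.17) and Mlxipl (0.49) with adipocyte scaling, for Mlxipl with total counts (0.0588) and without WT 4, and for Mid1ip1 without WT 3. With 1 mouse left out Srebf1 ranged from -0.78 (without WT 4) to -0.04 (without WT 2), Mlxipl from -0.153 to 0.00375 and Mid1ip1 from -0.00194 to 0.881. The median log2FC of all genes was 0.13 with total counts and 0.58 with adipocyte scaling; what moved these values was not tested.

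All genes called lower numbered 681, against 404 with total counts, 88 with adipocyte scaling, 449 with at least 10 counts in every mouse, 290 at adjusted p under 0.01, 227 with log2FC beyond 1, 279 without WT 1 and ATGLKO 2, and 400 to 851 with 1 mouse left out (400 without ATGLKO 2). Higher calls were 1191, against 3034 with adipocyte scaling, 746 with 10 counts in every mouse, 779 at adjusted p under 0.01 and 945 to 1304 with 1 mouse left out. Pathway list calls summed to 13 lower and 24 higher with adipocyte scaling and 8 higher with total counts. Fewer mice or fewer tested genes account for part of this by construction, and other causes were not tested.

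Replicate numbers did not pair the mice (correlations of deviations -0.09, -0.20, 0.30 and 0.24, and 1 of 4 WT mice closest to its own number). With the replicate block 581 genes were lower and 1138 higher, with 7 of the 10 genes lower. The paired ratios kept their differences (0.59 for Acacb to Acaca and -1.92 for Thrsp to Mid1ip1) with an adjusted p of 0.188, since 4 pairs cannot reach the threshold. With 1 mouse left out those differences ranged from 0.45 to 0.66 and from -2.24 to -1.53, with adjusted p up to 0.0857, and that of Srebf1 to Mlxipl from -0.65 to 0.25 (0.25 without WT 2, 0.02 without WT 3). At 10 counts in every mouse Srebf1 and Mid1ip1 were not tested. These genes had 170 and 176 counts over the 8 mice; whether depth or differences between mice set their wide intervals was not tested.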
